A study of Mus musculus with 42 samples.

Results

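Binding of the WNT effector LEF1 was compared directly between caudal epiblast-like cells (CEpiLCs) that lacked CDX factors and CEpiLCs that lacked T/BRA, to describe which of the strongest LEF1 sites separate these mutants. Of the 42 samples in the series, 6 entered the comparison, namely 3 LEF1 libraries from CdxKO cells (genotype Cdx1/2/4-/-) and 3 from T/BraKO cells (genotype T/Bra-/-). The 3 WT LEF1 libraries are given beside them, as are the β-catenin and SOX2 libraries of each genotype. All lines were ES cells of the HM1 (129) strain that had been differentiated for 72 h in bFGF and LGK974, a porcupine inhibitor that blocks WNT secretion, with the GSK3 inhibitor CHIR99021 added for the last day. Cells were fixed with DSG and then PFA before chromatin immunoprecipitation and sequencing (ChIP–seq). The labels name the samples of a group as biological replicates and give all of them the same experiment tag. Each genotype was carried by its own cell line, so an effect of the deleted genes and a difference between lines cannot be told apart, and the number of clones behind each line is not given in the sources used here. Peak lists hold no expression, so the labelled cell type was not checked against its markers. In bulk chromatin, fewer bound cells and weaker binding in each cell cannot be told apart.

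LEF1 is a DNA-binding protein of the TCF/LEF family. These proteins recognise WNT response elements through an HMG box and bring β-catenin, the effector of canonical WNT signalling, to the genome. In the caudal epiblast, WNT signalling induces the homeobox genes Cdx1, Cdx2 and Cdx4 and the T-box gene T/Bra, whose products take part in trunk Hox gene expression and in mesoderm formation. The study profiled both mutants to ask whether CDX and T/BRA direct WNT effectors to their sites.

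A site was a genomic interval made by merging the overlapping peaks of the 6 lists. A peak is an interval that the authors' peak caller found enriched in 1 library. Within each list, peaks were ranked by −log10 of the q-value, with rank 1 as the best, and only the 1000, 5000 or 20000 best peaks were used. A site separated the mutants when it was called among these peaks in 3 of 3 libraries of one mutant and 0 of 3 of the other. This pattern was the selection itself and was given no test. Among the 20000 best peaks, 200 sites were called in CdxKO only and 20 in T/BraKO only, whereas 337 were called in all 6 libraries. Of the 200 CdxKO-only sites, 93 belonged to 2 families of repeated sequence, which were noticed after the sites had been listed. A family was a set of at least 10 sites whose 100 bp on either side of the summit (the point of highest signal) shared words of 20 bases. Sites were linked in chains, so 2 members of a family need not share a word with each other.

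The copies below are shown because these families made up much of the separation. They are 3 CdxKO-only sites of family 1, read from the reference genome (RefSeq, GRCm38.p6, the same assembly as mm10). The Klhl32 copy lies at chr4:24865991-24866110 on the plus strand, the Cdan1 copy at chr2:120768911-120769030 on the plus strand and the Amph copy at chr13:18913465-18913584 on the minus strand. Capitals mark the TCF/LEF motif.
Klhl32 copy, family 1: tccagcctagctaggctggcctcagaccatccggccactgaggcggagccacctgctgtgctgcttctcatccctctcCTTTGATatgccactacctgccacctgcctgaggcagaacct
Cdan1 copy, family 1: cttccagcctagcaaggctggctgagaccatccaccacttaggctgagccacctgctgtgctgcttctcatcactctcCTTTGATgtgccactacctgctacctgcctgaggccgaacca
Amph copy, family 1: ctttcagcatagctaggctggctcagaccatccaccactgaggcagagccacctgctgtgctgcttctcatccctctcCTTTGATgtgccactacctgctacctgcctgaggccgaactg

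Of 120 bases, 108 were identical between the Klhl32 and Cdan1 copies, 109 between the Klhl32 and Amph copies and 111 between the Cdan1 and Amph copies. Family 2 is shown by the Actr2 copy at chr11:20134763-20134882 on the minus strand, the Dennd5b copy at chr6:149069819-149069938 on the plus strand and the Vmn2r2 copy at chr3:64121846-64121965 on the minus strand. The Actr2 and Dennd5b copies shared 113 of 120 bases and carried the TCF/LEF motif on the opposite strand. The Vmn2r2 copy shared 94 and 90 bases with them and held no match to the motif.
Actr2 copy, family 2: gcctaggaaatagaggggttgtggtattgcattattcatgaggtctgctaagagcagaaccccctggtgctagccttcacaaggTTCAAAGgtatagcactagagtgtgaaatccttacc
Dennd5b copy, family 2: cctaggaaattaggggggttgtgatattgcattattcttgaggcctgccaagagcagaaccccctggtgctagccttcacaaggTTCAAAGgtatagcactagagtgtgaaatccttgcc
Vmn2r2 copy, family 2: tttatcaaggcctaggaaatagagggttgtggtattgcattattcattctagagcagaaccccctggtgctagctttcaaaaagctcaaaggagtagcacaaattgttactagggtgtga

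A T/BraKO-only site and a site called in all 6 libraries are shown as examples, as the 50 bases on either side of the summit on the plus strand. The Hoxb4 site is the best-ranked T/BraKO-only site. The Foxb1 site was picked as a shared site with a TCF/LEF motif in this window, so the 2 do not measure how motifs differ between patterns. The next T/BraKO-only site, near Tbx3, held 1 TCF/LEF motif in such a window. The shared sites in Fam227b and Ybx3, which ranked ahead of Foxb1, held none. The Hoxb4 site, at chr11:96316627-96316727, lies 1590 bp upstream of Hoxb4 and held a CDX motif (capitals). The Foxb1 site, at chr9:69668845-69668945, lies 88815 bp downstream of Foxb1 and held 2 TCF/LEF motifs (capitals).
Hoxb4 site, T/BraKO only: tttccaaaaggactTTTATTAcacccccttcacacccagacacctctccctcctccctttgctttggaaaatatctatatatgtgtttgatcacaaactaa
Foxb1 site, all 6 libraries: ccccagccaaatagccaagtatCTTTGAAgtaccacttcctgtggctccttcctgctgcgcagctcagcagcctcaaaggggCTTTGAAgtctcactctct

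The deposited LEF1 lists varied in length within each group. They held 607176, 759597 and 462059 peaks in CdxKO, 924506, 858843 and 281971 in T/BraKO, and 612343, 723070 and 175430 in WT. On the log10 scale list length averaged 5.78 ± 0.108 in CdxKO (SD, n = 3) and 5.78 ± 0.289 in T/BraKO (two-sided exact permutation p = 1). With 3 libraries against 3 there are 20 assignments, and the smallest two-sided p is 0.1. The peak at rank 20000, the edge of the set, had a fold enrichment over background of 7.97 ± 0.633 in CdxKO and 7.90 ± 0.899 in T/BraKO, and the peak at rank 1000 had 13.3 ± 1.41 and 11.9 ± 1.17. The files hold no read totals, so the depth of each library is unknown.

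CdxKO lists overlapped each other more than T/BraKO lists did. Overlap was measured as the Jaccard index, the number of merged regions called in both of 2 lists divided by the number called in either. Over the 1000 best peaks the index averaged 0.279 within CdxKO (range 0.265 to 0.288 over 3 pairs) and 0.161 within T/BraKO (0.143 to 0.192). The 9 pairs of a CdxKO with a T/BraKO list averaged 0.187, so on average T/BraKO lists overlapped CdxKO lists no less than they overlapped each other. WT lists averaged 0.234 with CdxKO and 0.163 with T/BraKO. The order of these means was the same over the 5000 best peaks, with 0.101 within CdxKO, 0.0554 within T/BraKO and 0.0674 between the mutants, and over the 20000 best, with 0.0410, 0.0233 and 0.0284. These pairs share libraries and were not tested.

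**Figure D1:**
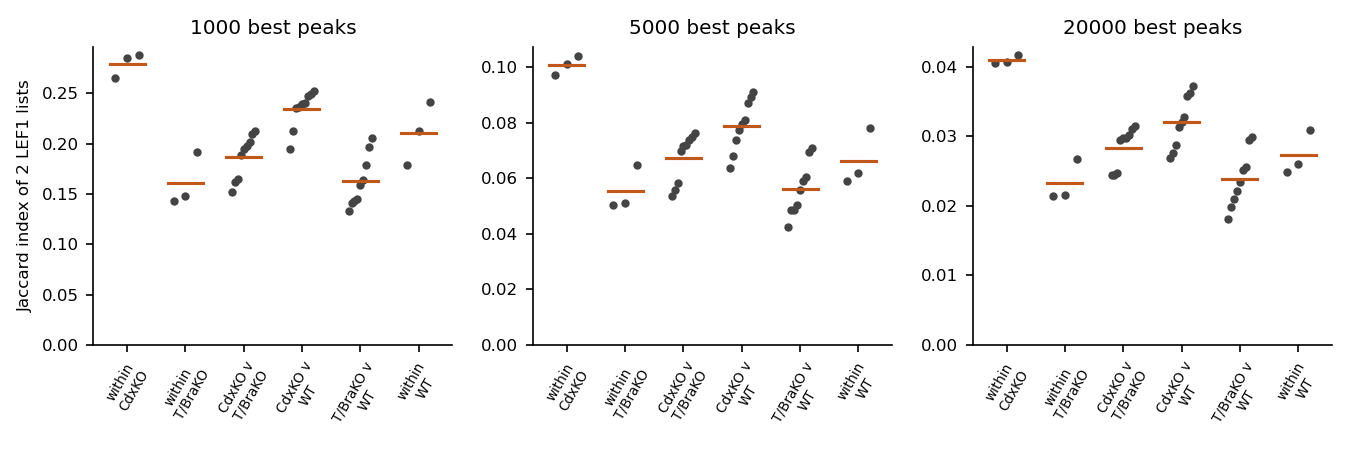
Jaccard index of every pair of LEF1 lists (vertical axis, no unit) over the 1000, 5000 and 20000 best peaks. Each point is a pair of libraries and each bar the mean of a kind of pair; pairs within CdxKO lie above pairs within T/BraKO in each panel.

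At every depth of the list, more sites were called in CdxKO only than in T/BraKO only. Among the 1000 best peaks, 61 of 3588 merged regions (1.7%) were called in CdxKO only, 9 (0.251%) in T/BraKO only and 129 in all 6 libraries. Among the 5000 best, the numbers were 128 (0.513%), 9 (0.036%) and 226 of 24967 regions. Among the 20000 best, they were 200 (0.181%), 20 (0.0181%) and 337 of 110483. T/BraKO lists also overlapped each other less, as given above, and the part of this in the imbalance was not tested. Leaving out T/BraKO replicate 1, 2 or 3 raised the T/BraKO-only count to 198, 164 or 180, and leaving out CdxKO replicate 1, 2 or 3 raised the CdxKO-only count to 484, 520 or 526. Without CdxKO replicate 2 or 3, 33 or 35 sites were called in T/BraKO only. Over the full lists the imbalance was gone, with 4259 regions in CdxKO only and 4419 in T/BraKO only.

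Most separating sites were not absent from the full lists of the other mutant. Of the 200 CdxKO-only sites, 20 held no peak in any full T/BraKO list, 60 held a peak in 1, 77 in 2 and 43 in all 3. Of the 20 T/BraKO-only sites, 2 held no peak in any full CdxKO list and 8 held one in all 3. WT libraries lay on both sides. Among their own 20000 best peaks, 43 of the 200 CdxKO-only sites were called in 0 WT libraries, 56 in 1, 52 in 2 and 49 in all 3. Of the 20 T/BraKO-only sites, 6 were called in 0 WT libraries, 10 in 1, 1 in 2 and 3 in all 3.

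The best-ranked CdxKO-only sites were among the strongest LEF1 sites of the CdxKO lists. Genes named here are the nearest protein-coding genes and are not shown to be targets. The site in an intron of Cpa6, a carboxypeptidase gene (family 1), ranked 51, 68 and 93 in CdxKO, 66825, 31357 and 74589 in T/BraKO, and 530, 85 and 79 in WT. The family 2 site 21895 bp upstream of Actr2, which encodes a subunit of the ARP2/3 actin nucleator, ranked 122, 88 and 96 in CdxKO, 40396, 68081 and 43891 in T/BraKO, and 220, 66 and 59 in WT. At both sites the WT ranks lay close to those of CdxKO.

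A further family 2 site, 246282 bp upstream of Vwc2, ranked 72, 90 and 50 in CdxKO and 77202 in T/BraKO replicate 1, with no peak in the other T/BraKO lists. The family 1 site 14957 bp upstream of Klhl32 ranked 112, 162 and 77 in CdxKO, and of the T/BraKO lists replicate 2 held a peak there, at rank 177869. The site in an intron of Ndufs4, a subunit gene of mitochondrial complex I, belonged to none of the families. It ranked 98, 113 and 222 in CdxKO, 39241, 86682 and 81207 in T/BraKO, and 307, 178 and 19 in WT. Each of these 5 sites held a TCF/LEF motif and was called by β-catenin in 3 of 3 CdxKO and 3 of 3 WT libraries. Calls at CdxKO-only sites were frequent in T/BraKO as well, where β-catenin libraries called 81, 70 and 81.5% of all such sites.

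The 20 T/BraKO-only sites were led by a site at a Hox gene, whose mean rank of 271 was behind those of the 5 CdxKO-only sites above (70.7 to 144), although ranks in single libraries interleaved. Hoxb4 encodes a homeobox factor of the trunk. The Hoxb4 site (chr11:96316189-96316821, mm10) ranked 435, 139 and 238 in T/BraKO and 77661, 82537 and 62535 in CdxKO. In WT it ranked 141, 37916 and 137, so that WT replicates 1 and 3 were like T/BraKO and replicate 2 was not. Its LEF1 fold enrichment was 13.8, 21.0 and 14.2 in T/BraKO against 5.49, 5.94 and 5.80 in CdxKO. β-catenin called it in 1 of 3 CdxKO, 3 of 3 T/BraKO and 3 of 3 WT libraries, and SOX2 in 0, 3 and 2 of 3.

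Of the next T/BraKO-only sites by mean rank, those nearest to Tbx3, T2 and Acvr1b are given here. The site 57043 bp upstream of Tbx3, a T-box gene, ranked 997, 1863 and 265 in T/BraKO and 158038, 281796 and 235161 in CdxKO. The site in an intron of T2, a gene beside T/Bra on chromosome 17, ranked 3095, 404 and 1196 in T/BraKO and 31629, 670867 and 176413 in CdxKO. The site in an intron of Acvr1b, which encodes a type I activin receptor, ranked 3252, 1415 and 132 in T/BraKO and 227, 197 and 140 in WT. In CdxKO it had no peak in replicate 1 and ranks of 629958 and 144101 in replicates 2 and 3. β-catenin called the Tbx3, T2 and Acvr1b sites in all 9 of its libraries. At the lower end of the set, the site in an intron of Thsd7a ranked 19733, 18715 and 3022 in T/BraKO, close to the limit of 20000.

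**Figure D2:**
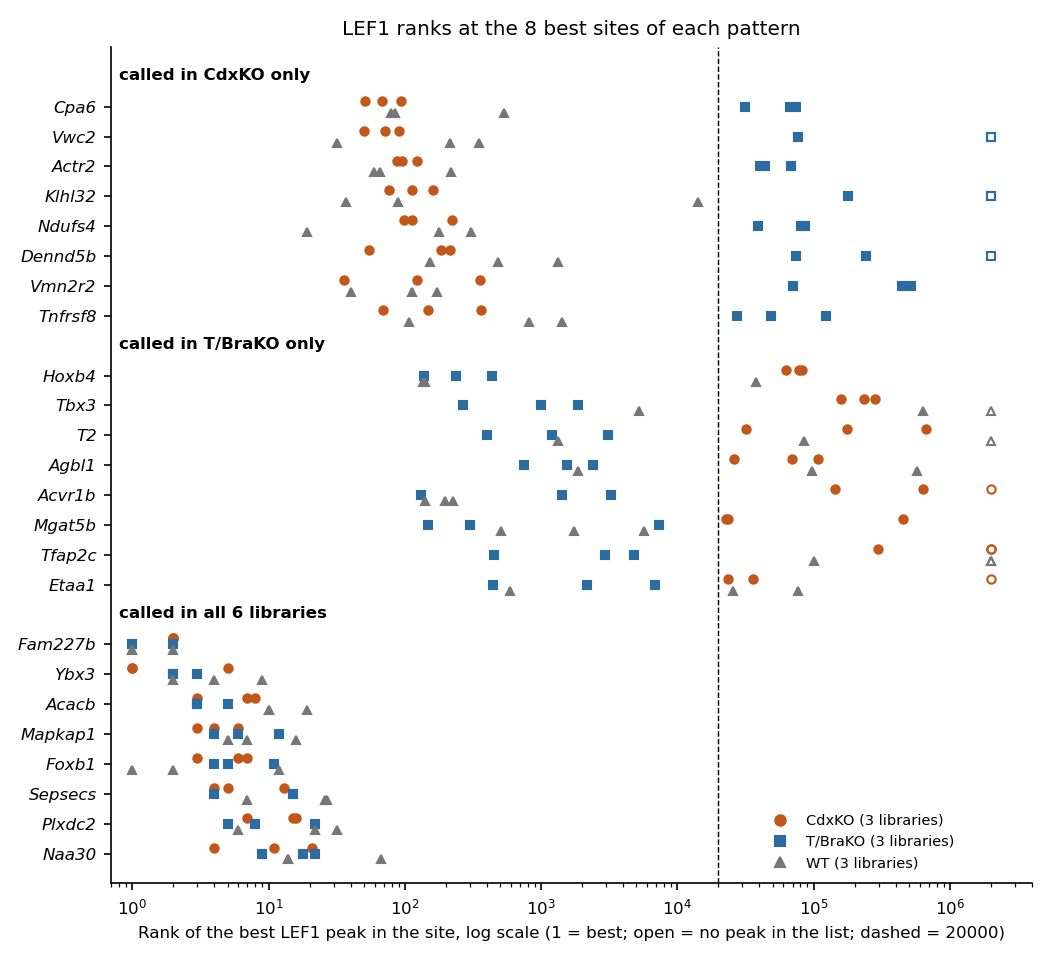
Rank of the best LEF1 peak (horizontal axis, log scale, 1 is best) at the 8 best sites of each pattern, named by nearest gene, with a point for each of 3 CdxKO, 3 T/BraKO and 3 WT libraries; open symbols mark lists with no peak and the dashed line marks 20000. WT points lie with the CdxKO points at CdxKO-only sites such as Actr2 and on both sides of the line at T/BraKO-only sites such as Hoxb4.

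The 337 sites called in all 6 libraries included the best peaks of every list. The sites in introns of Fam227b and Ybx3 ranked between 1 and 5 in the 6 libraries. Both belonged to smaller families of repeated sequence, held no TCF/LEF motif and were called in every β-catenin and every SOX2 library. The Foxb1 site shown above ranked 7, 6 and 3 in CdxKO, 11, 5 and 4 in T/BraKO, and 1, 12 and 2 in WT. Sites at genes of the WNT pathway were also shared. The site in an exon of Tcf7l1, a TCF/LEF family gene, ranked 9, 73 and 1 in CdxKO and 14, 8 and 1 in T/BraKO, and the site 932 bp upstream of Wnt6, a WNT ligand gene, ranked 64, 41 and 42 in CdxKO and 55, 38 and 38 in T/BraKO. The site 2660 bp upstream of Hoxd1 ranked 66, 75 and 53 in CdxKO and 78, 25 and 7 in T/BraKO. Thus, unlike at Hoxb4, ranks at Hoxd1 overlapped between the mutants. The Wnt6 and Hoxd1 sites, among the 25 best of this set, were chosen after their values were seen. Over the 337 sites the median LEF1 fold enrichment was 20.3, 18.5 and 15.6 in CdxKO, 14.6, 17.3 and 12.7 in T/BraKO, and 17.4, 14.2 and 12.8 in WT.

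The repeated families separated the mutants in every library. Family 1 held 46 CdxKO-only sites, 0 T/BraKO-only sites and 8 sites called in all 6, and family 2 held 47, 0 and 4. Across the genome, family 1 had 554 copies and family 2 had 769 (a copy held at least 10 matches to words shared by the family). The number of family 1 copies with a LEF1 peak among the 20000 best was 200, 164 and 161 in CdxKO, 51, 61 and 54 in T/BraKO, and 124, 142 and 165 in WT. For family 2 it was 156, 147 and 131 in CdxKO, 19, 31 and 21 in T/BraKO, and 94, 131 and 156 in WT. In both families every T/BraKO library lay below every CdxKO and every WT library. The families were picked from these LEF1 lists, so these counts were given no test.

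Copies that were not among the separating or shared sites had the same order. Of 502 such copies of family 1, 123 ± 21.7 (SD, n = 3) were called in CdxKO, 47.3 ± 5.13 in T/BraKO and 105 ± 17.0 in WT. Of 720 such copies of family 2, 96.0 ± 13.1 were called in CdxKO, 19.7 ± 6.43 in T/BraKO and 91.7 ± 24.6 in WT. In the full lists the gap was narrower, with 314 ± 27.2 family 1 copies in CdxKO and 219 ± 50.5 in T/BraKO, and 333 ± 34.1 and 189 ± 62.7 family 2 copies. Copies of both families held 13.6 ± 1.85% of the 1000 best summits in CdxKO, 1.63 ± 0.153% in T/BraKO and 12.1 ± 3.78% in WT. Reads from near-identical copies can be placed on the wrong copy, and the part of read placement in these counts was not tested.

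β-catenin and SOX2 libraries, which did not enter the choice of sites, had the same order at the copies. For β-catenin, 349, 328 and 355 copies of family 1 were called in CdxKO and 241, 210 and 252 in T/BraKO, with 307, 332 and 311 in WT. In family 2 the β-catenin numbers were 397, 397 and 405 in CdxKO, 181, 148 and 188 in T/BraKO, and 314, 414 and 346 in WT. The gap was wider among the 1000 best β-catenin peaks, which held 150 ± 12.1 family 2 copies in CdxKO and 7.67 ± 2.08 in T/BraKO, and 149 ± 25.3 and 28.0 ± 5.57 family 1 copies. For SOX2, 63, 45 and 96 copies of family 1 were called in CdxKO and 9, 13 and 23 in T/BraKO. WT SOX2 libraries called 12, 30 and 56, and so reached into the range of both mutants. SOX2 called 196, 187 and 240 copies of family 2 in CdxKO, 62, 72 and 96 in T/BraKO and 61, 101 and 185 in WT. These libraries come from the same lines and may share chromatin with the LEF1 libraries.

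**Figure D3:**
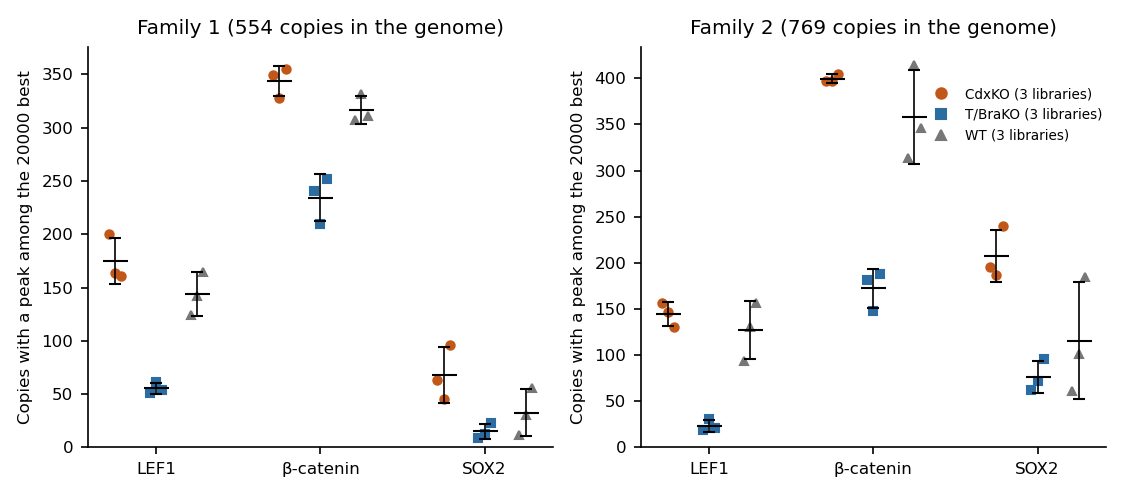
Number of genomic copies of family 1 (of 554) and family 2 (of 769) with a peak among the 20000 best of each library (vertical axis), for LEF1, β-catenin and SOX2. Points are the 3 libraries of each genotype and bars the mean ± SD; T/BraKO points lie below CdxKO points for all 3 factors.

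Outside the families, 107 CdxKO-only sites remained, against 20 T/BraKO-only sites. WT LEF1 libraries called 39.3, 23.4 and 33.6% of these 107 sites, compared with 61.3, 73.1 and 84.9% of the 93 family sites. The WT share was 55%, 20% and 30% at T/BraKO-only sites. The sequence of the reference genome was soft-masked as repetitive at the summit of 14 of the 107 sites (13.1%), 70 of the 93 family sites (75.3%), 2 of the 20 T/BraKO-only sites (10%) and 70 of the 337 shared sites (20.8%).

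TCF/LEF motifs were frequent at separating and shared sites alike. The motif (CTTTGAA or CTTTGAT on either strand, within 100 bp of the summit) was found in 149 of 200 CdxKO-only sites (74.5%, 95% Wilson interval 68.0 to 80.0%), 11 of 20 T/BraKO-only sites (55%, 34.2 to 74.2%) and 235 of 337 shared sites (69.7%, 64.6 to 74.4%). Among CdxKO-only sites it was found in 79 of the 93 family sites (84.9%) and 70 of the 107 others (65.4%). In windows shifted 1000 bp away it was present in 6.5%, 10% and 6.82% of CdxKO-only, T/BraKO-only and shared sites. The intervals cover counting error only, and sites are not replicates.

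Motifs of the deleted factors were less frequent at these sites than the TCF/LEF motif. Motifs differ in how often they occur in moved windows, so each is given with that share. The CDX motif (CAATAAA or CCATAAA, and also TAATAAA or TCATAAA) was found in 15 CdxKO-only sites (7.5%, 4.60 to 12%), 5 T/BraKO-only sites (25%, 11.2 to 46.9%) and 27 shared sites (8.01%, 5.56 to 11.4%). Moved windows held it in 25%, 15% and 17.2%. The 5 T/BraKO-only sites with a CDX motif lay nearest to Hoxb4, Acvr1b, Etaa1, Snph and Ptgis. The T-box motif (AGGTGTGA) was found in 2 CdxKO-only sites (1%), 0 T/BraKO-only sites and 4 shared sites (1.19%), and in 1.5%, 0% and 0.593% of moved windows. The SOX motif (CCATTGT or CCTTTGT) was found in 31 CdxKO-only sites (15.5%), 1 T/BraKO-only site (5%) and 49 shared sites (14.5%). Its share of moved windows was 7.5%, 5% and 7.72%.

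The promoter share of CdxKO-only sites was close to that of all CdxKO peaks. Start sites of all annotated transcripts were used here, not only those of protein-coding genes. A summit lay within 1000 bp of a transcription start site in 13 of the 200 CdxKO-only sites (6.5%, 3.84 to 10.8%), 5 of the 20 T/BraKO-only sites (25%, 11.2 to 46.9%) and 42 of the 337 shared sites (12.5%, 9.35 to 16.4%). Among all of the 20000 best peaks the share was 7.87 ± 0.478% in CdxKO and 6.89 ± 1.04% in T/BraKO (exact permutation p = 0.2). The summit was in an intron of the nearest gene at 69 CdxKO-only, 9 T/BraKO-only and 134 shared sites, and in an exon at 7, 1 and 12 sites.

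Over all of the best summits, separating sites included, the TCF/LEF motif was more frequent in CdxKO than in T/BraKO, by a gap that narrowed down the lists. Among the 20000 best peaks its share was 22.2, 21.7 and 21.0% in CdxKO, 15.3, 17.8 and 16.9% in T/BraKO, and 18.3 ± 2.53% (SD, n = 3) in WT. The difference between the mutants was 4.96 percentage points (two-sided exact permutation p = 0.1, the smallest possible; adjusted p = 0.1 over 4 motifs). Among the 1000 best peaks the share was 65.2 ± 1.8% in CdxKO and 47.5 ± 7.37% in T/BraKO, and among the 5000 best 36.0 ± 1.27% and 26.0 ± 3.34%. In the full lists it was 11.2 ± 0.202% and 10.5 ± 0.522%, a difference of 0.747 points (exact permutation p = 0.1). With summits in the family copies left out, an alternative chosen after seeing the data, the share was 62.2 ± 2.09% and 46.9 ± 7.46% among the 1000 best. In windows shifted 1000 bp away the motif was present in 8.46 ± 0.158% and 8.63 ± 0.114% of cases for the 20000 best peaks.

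The CDX motif had the opposite order, and the T-box and SOX motifs had the order of TCF/LEF. In the 20000 best peaks the CDX share was 13.6 ± 0.187% in CdxKO and 14.5 ± 0.213% in T/BraKO, the T-box share 1.15% and 0.937%, and the SOX share 9.03 ± 0.208% and 8.60 ± 0.118%. In WT the shares were 14.9 ± 0.608% for CDX, 0.977% for T-box and 8.50 ± 0.214% for SOX, so the WT mean for CDX lay above both mutants. At this depth CdxKO and T/BraKO libraries did not overlap for any of these 3 motifs (exact permutation p = 0.1 for each, adjusted p = 0.1). This depended on the setting. The T-box shares overlapped among the 1000 best (exact permutation p = 0.7), the 5000 best (p = 0.5) and in the full lists (p = 0.4), where the difference was 0.0181 points. The CDX difference was −2.77 points among the 1000 best and −0.0472 points in the full lists, where libraries overlapped (exact permutation p = 0.9). The SOX shares overlapped within 50 bp of the summit and with family copies left out (exact permutation p = 0.2 for both). Among the 20000 best, both CDX shares were below that of moved windows, at 17.7 ± 0.214% and 17.9 ± 0.314%.

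**Figure D4:**
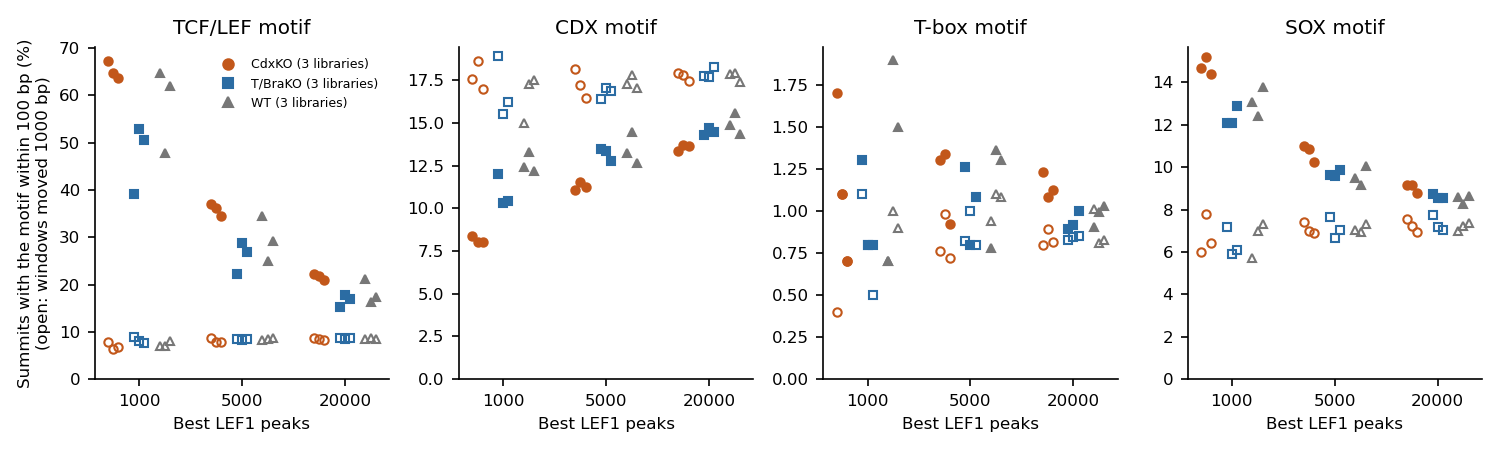
Share of LEF1 summits with each motif within 100 bp (vertical axis, %) among the 1000, 5000 and 20000 best peaks, with 3 libraries per genotype; open symbols are windows moved by 1000 bp. For TCF/LEF the CdxKO points lie above the T/BraKO points at each depth, and all lie above the moved windows.

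Whether the separating sites carry the same separation in the partner factors was tested in the β-catenin and SOX2 libraries. For each library, the share of T/BraKO-only LEF1 sites it called was subtracted from the share of CdxKO-only sites. β-catenin called 90.5, 88.5 and 90.5% of CdxKO-only sites in CdxKO and 81, 70 and 81.5% in T/BraKO, and 55, 75 and 65% against 95, 90 and 95% of T/BraKO-only sites. The difference of shares was 24.8 ± 11 percentage points in CdxKO and −15.8 ± 3.62 in T/BraKO, 40.7 points apart (two-sided exact permutation p = 0.1, the smallest possible; adjusted p = 0.1 over 2 factors). In WT it was 6.83 ± 9.75 points, between the mutants. Without the family sites, which were left out after seeing the data, the mutants were 33.9 points apart, mostly through the 20 T/BraKO-only sites, of which β-catenin called 65.0 ± 10.0% in CdxKO and 93.3 ± 2.89% in T/BraKO. At the 107 CdxKO-only sites outside the families it called 81.0 ± 2.16% in CdxKO, 75.4 ± 5.40% in T/BraKO and 72.3 ± 5.15% in WT, a difference between the mutants of 5.61 points (exact permutation p = 0.3).

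SOX2 had the same order. It called 53, 51.5 and 60% of CdxKO-only sites in CdxKO and 22, 23 and 32.5% in T/BraKO, and 35, 35 and 45% against 50, 60 and 65% of T/BraKO-only sites. The difference of shares was 16.5 ± 1.5 points in CdxKO and −32.5 ± 4.50 in T/BraKO, 49 points apart (exact permutation p = 0.1, adjusted p = 0.1), with −5.00 ± 3.12 in WT. Without the family sites the distance was 32.8 points, of which 20 came from the 20 T/BraKO-only sites and 12.8 from the 107 CdxKO-only sites. At those 107 sites SOX2 called 47.7 ± 0.935% in CdxKO, 34.9 ± 3.00% in T/BraKO and 26.8 ± 11.1% in WT, so the WT mean lay below both mutants. At the shared sites outside the families, SOX2 called 78.8 ± 2.02% in CdxKO and 78.5 ± 3.55% in T/BraKO, and β-catenin called 98.2 ± 0.615% and 97.0 ± 2.00%.

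A fit over the regions with a peak in every full list then asked which single sites differed beyond the spread between libraries. Of the separating sites, 43 of 200 CdxKO-only and 8 of 20 T/BraKO-only sites met this condition, and the others could not be called. The fit used the same libraries whose ranks defined these sites. A call at such a site is therefore no independent support for the separation. Of the 110483 regions merged from the 20000 best peaks, 1567 held a peak in all 6 full lists. limma was fitted to their log2 fold enrichment, and regions were called at a Benjamini-Hochberg adjusted p under 0.05. In this fit, 3 regions (0.191%) were higher in CdxKO and 1 (0.0638%) in T/BraKO, and 58 in each direction had an unadjusted p under 0.05. This even split depended on the scale. By log10 rank, on which the median region lay 0.23 ahead in CdxKO, 104 regions were ahead in CdxKO and 28 in T/BraKO at that level. With absent peaks given the lowest fold of their list, 1005 and 536 of 110483 regions were. The Vmn2r2 intron, in a vomeronasal receptor gene, is the family 2 copy printed above. Its fold enrichment was 48.2, 27.3 and 13.3 in CdxKO and 4.19, 4.07 and 5.58 in T/BraKO, a log2 difference of 2.23 (SE 0.48, limma adjusted p = 0.00776). The family 1 site in Cpa6 had 42.6, 35.7 and 27.0 against 6.80, 7.90 and 4.86 (log2 difference 2.18, limma adjusted p = 0.00776), and the site in Ndufs4, outside the families, 34.1, 27.8 and 19.1 against 7.0, 5.53 and 5.19 (1.90, limma adjusted p = 0.0495).

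The region higher in T/BraKO lay on chromosome 16 (chr16:31535169-31535827, mm10), 76268 bp from Bdh1, a ketone body metabolism gene. Its fold enrichment was 9.14, 13.8 and 6.29 in CdxKO and 36.1, 31.0 and 39.3 in T/BraKO, a log2 difference of −2.21 (SE 0.48, limma adjusted p = 0.00776). It ranked 36, 45 and 16 in T/BraKO and 4223, 876 and 25819 in CdxKO, so it was no T/BraKO-only site by the rule on calls. The Hoxb4 site missed the threshold, with a log2 difference of −1.76 (limma adjusted p = 0.0788), as did the Tbx3 site (−1.66, limma adjusted p = 0.0998). No region passed without CdxKO replicate 1, T/BraKO replicate 1 or T/BraKO replicate 3, when log10 rank was used, or when absent peaks were given the lowest fold of their list.

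At gene loci, the same kind of fit was made for the log10 of the best LEF1 rank within each protein-coding gene extended by 10000 bp. Of 7953 loci tested, 4 (0.0503%) ranked ahead in CdxKO and 0 (0%) in T/BraKO, with 266 and 186 at an unadjusted p under 0.05. The 4 were Vmn2r2, Ndufaf6, Vmn1r198 and Olfr1229. All 4 held a copy of a repeated family within the extended gene, of family 1 at Olfr1229 and of family 2 at the others. The families were picked from these same libraries, so these calls are no independent support either. A family 2 region lay 6888 bp from Ndufaf6, an assembly factor gene of complex I, which ranked 158, 80 and 149 in CdxKO and 41907, 115732 and 14692 in T/BraKO (limma adjusted p = 0.0136). Vmn2r2 had 36, 123 and 359 against 135498, 143778 and 15413 (limma adjusted p = 0.0136). The locus of Hoxb4 had best ranks of 34273, 14125 and 23177 in CdxKO, 435, 139 and 238 in T/BraKO, and 141, 645 and 137 in WT, and did not pass (limma adjusted p = 0.067). No locus passed without any one CdxKO library or without T/BraKO replicate 1 or 2, and 3 loci passed without T/BraKO replicate 3.

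None of the listed developmental genes passed this fit. Ranks that did not overlap between the mutants were found at 1036 of 20444 loci (5.07%) with CdxKO ahead and at 989 (4.84%) with T/BraKO ahead, and the listed genes are read against these shares. Among 12 WNT feedback and target genes, 11 were tested, and the median difference of log10 rank, CdxKO minus T/BraKO, was −0.30 against −0.00092 over all tested loci. In all 6 libraries, 2 of the 12 genes ranked within the 1000 best and 5 within the 20000 best. Axin2, a negative feedback regulator of WNT signalling, ranked 239, 227 and 125 in CdxKO and 4381, 567 and 187 in T/BraKO. Znrf3, a ubiquitin ligase that removes WNT receptors, ranked 195, 183 and 36 in CdxKO and 229, 97 and 53 in T/BraKO, and Nkd1 also ranked within the 1000 best of all 6 libraries.

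Within that list, 1 gene did not overlap in each direction. Notum, a secreted WNT deacylase, ranked 2940, 1669 and 3329 in CdxKO and 64587, 18326 and 5408 in T/BraKO. Sp8, a zinc finger gene of the SP family, ranked 18969, 67108 and 1393 in CdxKO and 262, 660 and 676 in T/BraKO (limma adjusted p = 0.469). The 4 TCF/LEF genes overlapped, with a median difference of −0.20, and Tcf7l1 and Tcf7l2 ranked within the 1000 best of all 6 libraries. Lef1 itself ranked 674, 284 and 1102 in CdxKO and 11767, 488 and 2289 in T/BraKO.

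Of 17 caudal epiblast genes and CDX targets, 12 were tested (median −0.13). Of the Cdx genes, Cdx1 and Cdx2 ranked well in both mutants and Cdx4 did not. Cdx1 ranked 355, 852 and 158 in CdxKO and 632, 173 and 122 in T/BraKO, and Cdx2 1274, 619 and 315 against 273, 324 and 1439. WT ranks at Cdx1, at 61, 52 and 38, were ahead of those of every mutant library. Cdx4 ranked 3123, 71633 and 70646 in CdxKO and 158565, 44053 and 109384 in T/BraKO, and was not tested. Hoxb8 was the gene of this list without overlap, with 74646, 47267 and 60929 in CdxKO and 2229, 19544 and 3568 in T/BraKO, and 925, 37305 and 34896 in WT (limma adjusted p = 0.726). The neighbouring Hoxb9 had the same ranks in T/BraKO but 188, 29849 and 778 in CdxKO, so the mutants overlapped there (limma adjusted p = 0.974). Hoxb1 ranked 42, 31 and 41 in CdxKO, but 10392, 28 and 15110 in T/BraKO, where replicate 2 was like CdxKO (limma adjusted p = 0.517). Over the 4 Hox clusters, each extended by 10000 bp, 26, 18 and 12 of the 20000 best peaks were found in CdxKO and 12, 27 and 23 in T/BraKO (exact permutation p = 0.8).

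Of 15 T/BRA targets and mesoderm genes, 10 were tested (median −0.39). Mixl1, a homeobox gene of the primitive streak, ranked 1211, 2390 and 1812 in CdxKO and 116290, 44256 and 27520 in T/BraKO, without overlap (limma adjusted p = 0.265). In WT it ranked 219664, 16330 and 18736, so that CdxKO also lay ahead of WT. T/Bra itself ranked 2845, 33227 and 888 in CdxKO and 56315, 25100 and 1408 in T/BraKO, and Tbx6, a T-box gene of paraxial mesoderm, 1166, 16393 and 3733 against 41516, 207783 and 5453. Both overlapped between the mutants.

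The remaining lists were mostly outside the best peaks. Of 15 pluripotency and epiblast genes, 5 were tested (median 0.26). Ranks did not overlap at 3 of the 15 (Klf2, Klf4 and Fgf5) with CdxKO ahead and at 0 with T/BraKO ahead. Over all loci these shares were 5.07% and 4.84%. The 3 genes were not tested, since their geometric mean rank over the libraries of both mutants was above 20000. A locus far down the lists of either mutant could thus drop out of the fit. Klf2, a pluripotency factor gene, ranked 4670, 19377 and 8347 in CdxKO and 144598, 35459 and 96314 in T/BraKO. Of 9 neural genes 3 were tested (median −0.53), and of 10 genes of other tissues, fibroblast collagens included, 2 were tested (median −0.45). Ranks overlapped at every gene of these last lists.

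**Figure D5:**
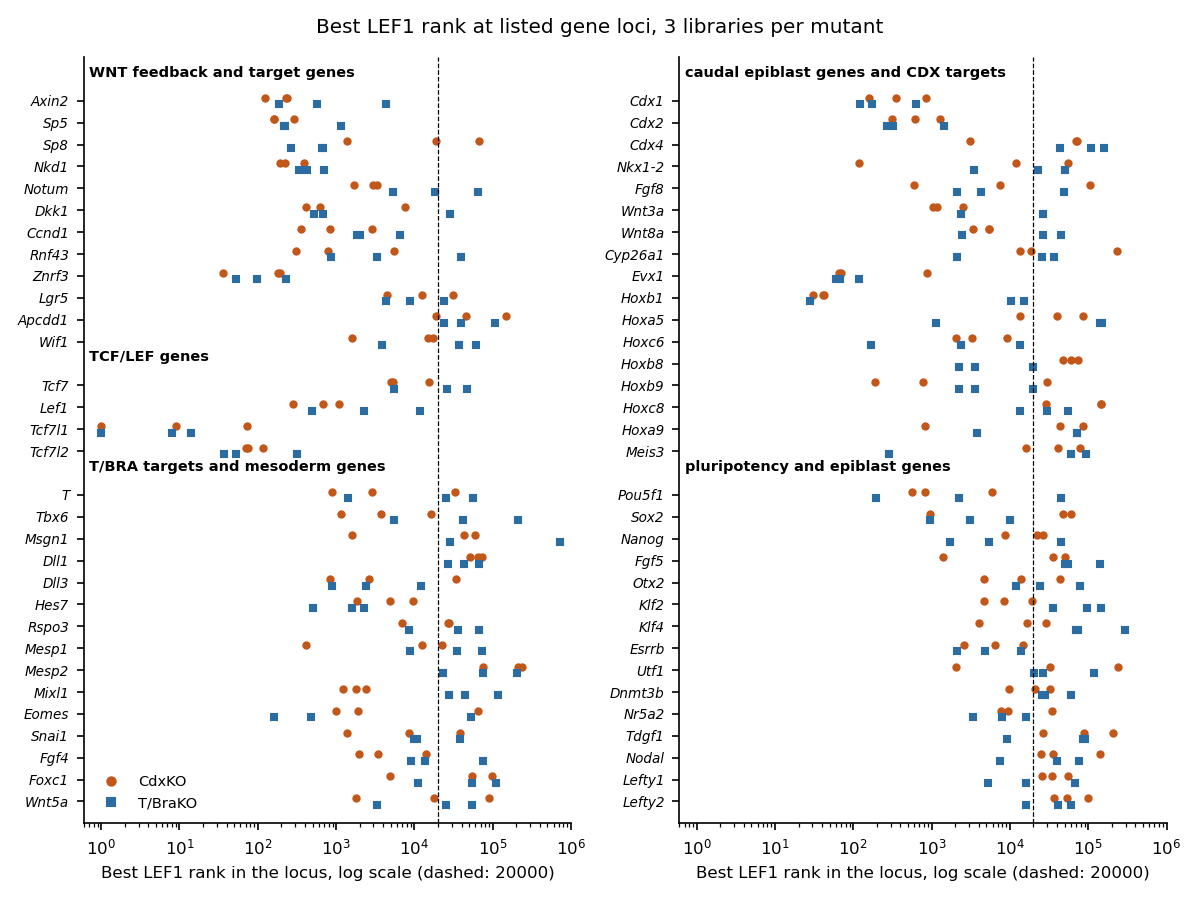
Best LEF1 rank (horizontal axis, log scale, 1 is best) within each listed gene extended by 10000 bp, with a point for each of 3 CdxKO and 3 T/BraKO libraries; the dashed line marks 20000. Groups overlap at most genes, with Notum, Mixl1, Klf2, Klf4 and Fgf5 further left in CdxKO and Sp8 and Hoxb8 further left in T/BraKO.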

How the data were processed

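Per the labels and the study's methods, the authors aligned reads to mm10 with BWA in the nf-core ChIP-seq pipeline and called narrow peaks in each library with MACS2. Neither its version nor the input that served as control for each list is given in the sources used here, and peaks are taken as called. The deposited lists give for each peak a fold enrichment (a linear ratio over local background), −log10 p and −log10 q, and the summit position in bp as the authors' caller wrote them. They hold no read counts, so no count test was made and depth is unknown. The input samples were not analysed here.

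Peaks were ranked by −log10 q, and peaks of the 6 LEF1 lists that shared at least 1 bp were merged. Motifs were searched within 100 bp of summits in RefSeq GRCm38.p6. Nearest genes and loci were protein-coding genes of the GENCODE basic annotation for that assembly. Transcription start sites were those of all its transcripts, of any gene type. A summit was soft-masked when its base was in lower case in the reference. Group means were compared by exact permutation tests over the 20 assignments of 3 libraries against 3, with Benjamini-Hochberg adjustment over 4 motifs or 2 factors. limma 3.58.1 (R 4.3.3) was fitted to quantile-normalised log2 fold enrichment over regions and to log10 best rank over loci whose geometric mean rank was at most 20000, and both fits were tested on simulated data. Python 3.11.15 was used for the rest.

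Members, gene lists and tests were chosen with earlier results of these data known. Genes were named by a rule: the 7 fixed lists, the 8 best sites of each pattern and all calls of both limma fits. Families, their printed copies and their alternatives, and the Hoxb4 locus, the Hoxd1, Wnt6 and Thsd7a sites and the T/BraKO-only sites with a CDX motif were chosen after values were seen. Replicates share a number across mutants. Deviations of same-numbered libraries from the group means had correlations of 0.0047 to 0.0573, all positive but under 0.1. Differently numbered libraries had −0.0473 to 0.0201 over regions and −0.0360 to −0.0115 over loci. As the correlations were small, the numbers were not taken to pair samples in the main fits. Alternatives were other depths of the lists, ranking by fold, narrower windows, wider loci, other scalings, a replicate block and leaving out each library.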

Additional observations from a re-analysis of the deposited data

How the results depend on the processing

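Over 180 alternatives of 19 results, 132 were labelled as the same, 41 as moved and 7 as turned in direction. For results with a permutation test, the same meant that the direction was kept. Their p could not fall under 0.05 in any setting, so no change of that kind could be seen. For counts, the same meant a ratio within a set limit. For overlaps and WT shares it meant a change smaller than the SD. A count or share that moved did not have to change its order between the mutants. In the permutation results, keeping the direction did not mean keeping the size. With full lists the differences in motif share were 0.747 points for TCF/LEF in place of 4.96, −0.0472 for CDX in place of −0.903, 0.0181 for T-box in place of 0.208 and 0.0865 for SOX in place of 0.427. With the 1000 best peaks the TCF/LEF difference was 17.7 points. Full lists gave 4259 sites in CdxKO only and 4419 in T/BraKO only, a mean overlap between lists of 0.0531 in place of 0.0283, and 0.00364 in place of 0.0177 for the overlap within CdxKO minus that within T/BraKO. Leaving out each library gave 0.0143 to 0.0194 for the latter, 258 to 526 CdxKO-only sites (484 to 526 when a CdxKO library was left out, since fewer libraries then had to call a site) and 28 to 198 T/BraKO-only sites. Without the repeated families 107 CdxKO-only sites remained. WT libraries called 51.2% of CdxKO-only sites (40.2% with the 5000 best peaks, 81.3% with full lists) and 35% of T/BraKO-only sites (68.3% with full lists). The difference of log10 list length, −0.00714, was −0.174 to 0.0841 without each library. The difference of −2 Hox cluster peaks was 0.333 with the 5000 best, 1.67 with full lists and −6.33 to 1.33 without each library.

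The regions higher in CdxKO (3) and in T/BraKO (1) were 0 and 0 by log10 rank or with absent peaks at the lowest fold, and 0 to 2 and 0 to 1 without each library. The loci ahead in CdxKO (4) and T/BraKO (0) were 25 and 1 with 50000 bp, 0 ahead in CdxKO by log2 fold, and 0 to 3 without each library. With the replicate block, which pairs same-numbered libraries whose correlations were positive but small, regions were 6 and 1 and loci 7 and 1. The cause of these shifts was not tested, beyond fewer samples when a library was left out. List depth limits all of them, since presence among the best peaks is relative to each list and read depth is unknown.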
